A study of Danio rerio with 2 samples.

Results

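Genes for plasma apolipoproteins and for a fatty acid carrier of the liver include the 3 most abundant transcripts of sorted Cldnk:GFP-positive zebrafish cells, and 9 such genes, of high and low level, are described here across the comparison of rraga mutants with wild type. They are the apolipoprotein genes apoa1a, apoa1b, apoa2, apoa4b.1, apoea, apoeb, apoc1 and apoc2 and the liver fatty acid binding protein gene fabp10a, taken by name from a table of 34326 genes. All 9 were found, their Ensembl identifiers carried the same symbols in a separate gene name table, and all 9 had a p-value, as did 25757 genes in all. The groups were larvae mutant for rraga, the gene of the lysosomal small GTPase RagA, and wild-type larvae. Both groups were of the TL (Tupfel long fin) strain, were 5 days old and carried the Cldnk:GFP marker. Its promoter is that of a claudin gene expressed in myelin-making glia, among them the oligodendrocytes of the brain and spinal cord. GFP-positive cells were sorted by flow cytometry and their total RNA was sequenced. Each genotype has 1 record, which joins 2 biological replicates, and the labels do not give the rraga allele or how many larvae were pooled. The values came as the authors' own comparison, so none can be given per sample.

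Apolipoproteins are the protein coat of the particles that carry cholesterol, triglycerides and phospholipids through the blood. The A-type proteins build high density lipoprotein, apolipoprotein E hands particles to receptors of the low density lipoprotein receptor family, and the small C-type proteins tune the enzymes that work on the particles. In vertebrates the liver and gut secrete most of them into the blood, and in the fish embryo the yolk syncytial layer does so as well. Within the mammalian brain, astrocytes and microglia make apolipoprotein E. fabp10a encodes the basic fatty acid binding protein of fish hepatocytes, a cytosolic protein that is not secreted, and it is a widely used marker of the zebrafish liver.

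Expression is given as a level, which is the higher of the mean values of rraga mutant and wild type in a normalized unit for which the table has no name. The 3085 genes with a level above 0 and below 0.1 took 2925 distinct values, so 1 read was not worth the same in every gene, as in a unit scaled by gene length. The fold is that of mutant over wild type by the title of the table, and a gene is said to have risen or fallen only where the authors' FDR adjusted p was under 0.05. Of all genes with a p, 57 (0.221%) passed that threshold, and of the 944 genes with a level of 100 or more, 14 (1.48%) did. Markers of oligodendrocytes were present, 15 of 18 at a level of 10 or more. Their levels ran from 5321 for mbpa (myelin basic protein) to 0.490 for the lineage factor gene olig1. Between these lay cldnk itself at 1184 and the lineage factor gene sox10 at 74.6. The 18 oligodendrocyte markers together held 2.60% of the summed level of all genes.

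The 9 lipid carrier genes were chosen with the high abundance of some of them known, so their large summed level describes that choice. Their summed level was higher than that of the 18 oligodendrocyte markers. This did not hold gene by gene: mbpa, at 5321, had a higher level than every carrier except apoa2, apoa1b and fabp10a. Because each level is that of the genotype with the higher mean, a share of the summed level belongs to neither genotype. The 9 genes held 10.3% of the summed level of all genes, and 3 of them, apoa2, apoa1b and fabp10a, held 9.87%. apoa2, which encodes apolipoprotein A-II of high density lipoprotein, had the highest level of the whole table at 23441. apoa1b, a gene for apolipoprotein A-I, the main structural protein of those particles, came next with a level of 22959. fabp10a ranked 3 with a level of 15735. The nearest genes below them in level were AC024175.4 of the mitochondrial genome at 13874 and the pancreatic protease genes prss59.2, ela2, ctrb1 and try, with levels of 10209, 6410, 5784 and 5682.

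The other 6 genes were spread over a wide range of levels. apoc1, for an apolipoprotein that in mammals inhibits cholesteryl ester transfer protein, had a level of 1413 at rank 45. apoa4b.1, for an apolipoprotein A-IV, a protein that enterocytes of mammals secrete with chylomicrons, had 637 at rank 118. apoc2, for the activator of lipoprotein lipase, had 449 at rank 190. apoeb, for an apolipoprotein E, had 232 at rank 399. The other copies of the paralog pairs were much lower, with apoa1a at 74.4 (rank 1236) and apoea at 5.14 (rank 8275). On the scale of the level, apoa1b stood 309 times above apoa1a and apoeb 45.1 times above apoea. The table gives no spread for a level, so whether neighbours in this order, such as apoa2 and apoa1b, differ beyond replicate error is not known.

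**Figure D1:**
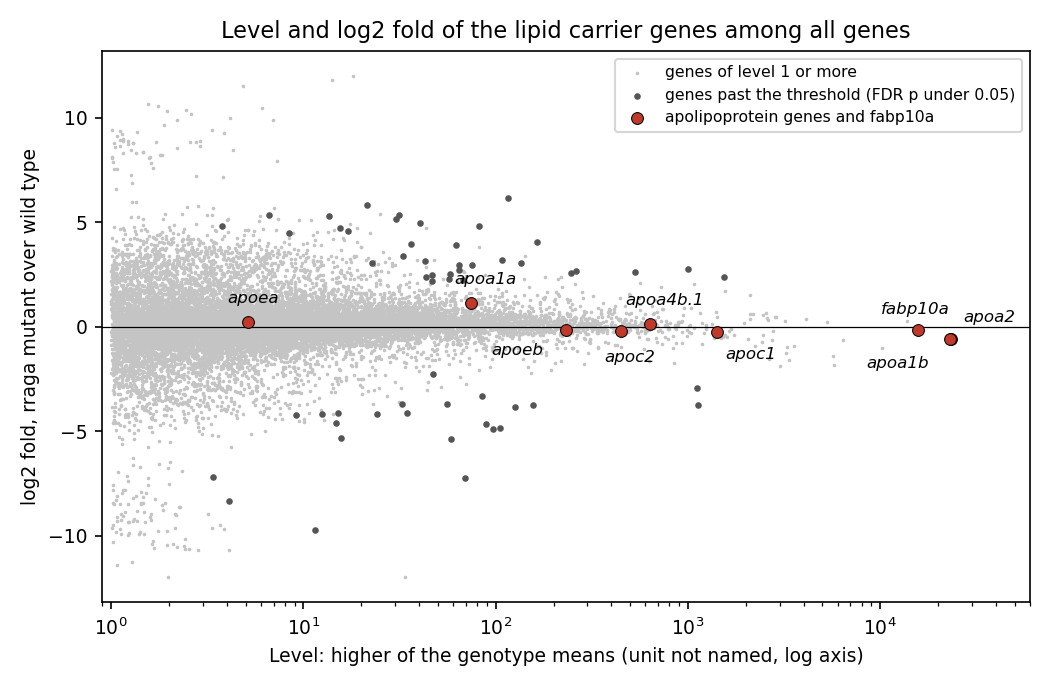
Each point is a gene of level 1 or more, with its level (the higher of the genotype means, log axis, unit not named) on the x axis and the authors' log2 fold of rraga mutant over wild type on the y axis. The 9 lipid carrier genes are red, and genes with an authors' FDR p under 0.05, the threshold set here, are dark grey. At the right end lie apoa2, apoa1b and fabp10a, with levels from 15735 to 23441, and none of the 9 is past the threshold.

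In rraga mutant cells, none of the 9 genes passed the threshold set here on the authors' FDR adjusted p, beside 0.221% of all genes. Of the 9, 6 had a lower value and 3 a higher value in mutant than in wild type, and the median log2 fold was -0.17, against 0.02 for all genes with a p and 0.11 for genes of level 100 or more. None had an unadjusted p under 0.05, where 9.66% of all genes had. Among the 7 with a level of 100 or more, apoa4b.1 was the exception and the other 6 were lower in the mutant, where 38.1% of all genes of such level and 49% of all genes with a p were lower. In the authors' deposited table the smallest p among them was that of apoa1a, at 0.127, and 0.850 after FDR adjustment. In a bulk sample of sorted cells, fewer cells of a type and less RNA per cell cannot be told apart.

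The highest-ranked A-type genes had near-equal folds. In the authors' deposited table, apoa2 had a log2 fold of -0.57, a ratio of mutant to wild type of 0.672, with p = 0.301. apoa1b had a log2 fold of -0.57 and a ratio of 0.673 there, with p = 0.294. Both genes were thus lower in mutant than in wild type by a size that did not pass the test. The error of each value is an implied standard error, derived from the deposited fold and p as if the authors' test were a normal one. It was 0.56 for apoa2, which gives a 95% interval of the ratio of 0.316 to 1.43, and 0.54 for apoa1b, with an interval of 0.322 to 1.41. Of the 944 genes of level 100 or more, 8.47% had a lower log2 fold than apoa2 and 8.69% a lower one than apoa1b.

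The low copy of apolipoprotein A-I had a log2 fold of opposite sign to that of the high copy, and both intervals hold a ratio of 1. apoa1a had a log2 fold of 1.13 (ratio 2.18) in the authors' deposited table, with an implied standard error of 0.74 and a 95% interval of the ratio of 0.802 to 5.94. The log2 folds of apoa1a and apoa1b were 1.70 apart, but the intervals overlap and the difference itself was not tested. apoa4b.1 had a log2 fold of 0.15 (ratio 1.11, 95% interval 0.503 to 2.44) with p = 0.799 in the authors' deposited table. Its value lay close to the middle of the genes of level 100 or more, of which 54.0% had a lower log2 fold.

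The pair of apolipoprotein E genes had small folds of either sign. apoeb had a log2 fold of -0.15 (ratio 0.904, 95% interval 0.418 to 1.96) with p = 0.798 in the authors' deposited table. apoea had 0.22 (ratio 1.17) there, with p = 0.874. At its low level the implied standard error of apoea was 1.42 on the log2 scale, and its interval as a ratio was 0.171 to 7.996. Both intervals hold a ratio of 1, so the direction of neither gene is known.

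The C-type genes were near each other in fold. apoc1 had a log2 fold of -0.26 (ratio 0.835, 95% interval 0.379 to 1.84) and p = 0.654, in the authors' deposited table. apoc2 had -0.22 (ratio 0.861, 95% interval 0.408 to 1.82) and p = 0.695 there. Neither passed the test, and both ratios lay between that of fabp10a and those of apoa2 and apoa1b. fabp10a, the hepatocyte marker, had a log2 fold of -0.17 (ratio 0.888, 95% interval 0.388 to 2.03) with p = 0.779 in the authors' deposited table.

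Each of the 9 intervals holds a ratio of 1, and each is wide. For the gene of median precision among the 9, a log2 fold of 2.29, or a 4.90-fold difference, would have been needed to pass the threshold, with a range of 2.14 for apoa1b to 5.59 for apoea. An observed log2 fold smaller in size than the one needed for that gene would not pass the threshold in this comparison. The needed size was set at an unadjusted p of 7.92e-05 in the authors' test, the largest among genes past the threshold. The missed threshold does not show that the genotypes were equal. Across the 9 genes the log2 folds had an SD of 0.52, beside a median implied standard error of 0.58. Over all genes of level 100 or more the median implied standard error was 0.56. It is not known whether this error carries the replicate spread of each gene. The 9 genes come from the same cells and libraries, so they are not replicates of each other.

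**Figure D2:**
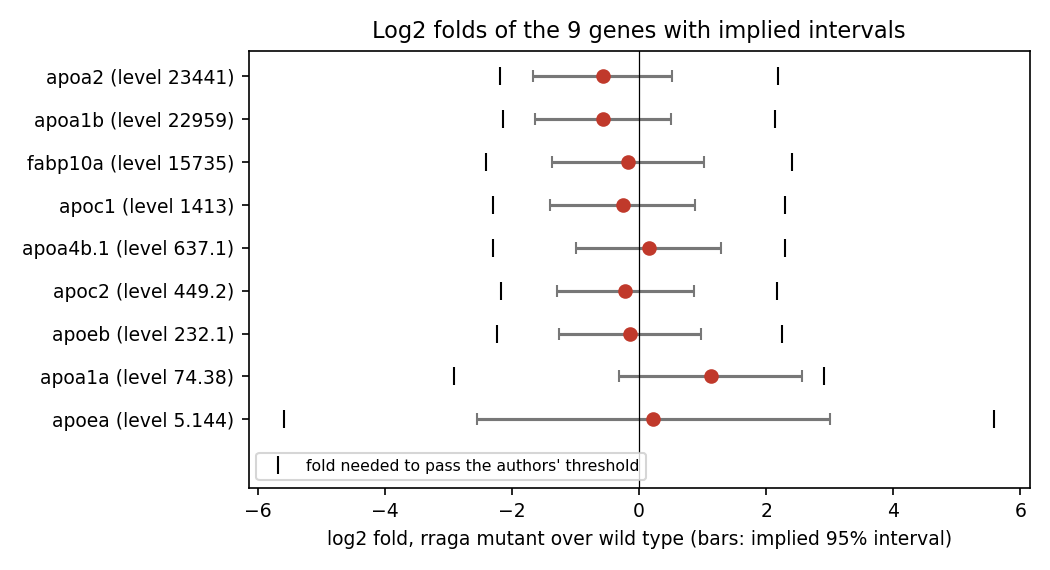
The x axis is the log2 fold of rraga mutant over wild type in the authors' table. Points are the 9 genes in order of level, and horizontal bars are 95% intervals implied by the deposited p. Vertical ticks mark the size of log2 fold needed to pass the threshold of 0.05 set here on the authors' FDR p. All 9 bars cross 0 and stop short of the ticks; apoea, at a level of 5.14, has the widest bar.

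Position and counting bear on several of these genes. On the build GRCz11, 6 of the 9 lie on chromosome 16, and 5 of them, apoa4b.1, apoeb, apoc1, apoa2 and apoc2, stand on the same strand within 80.5 kb (23999038 to 24079551). fabp10a lies 28.5 Mb further along the chromosome, from 52626257 to 52631239. apoa1b is on chromosome 15 (31389 to 33853, minus strand), apoa1a on chromosome 5 (37378348 to 37381368) and apoea on chromosome 19 (10936233 to 10940769). The cluster holds 9 annotated genes, of which 8 had a level above 0 and a p.

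Levels changed sharply between neighbours in that cluster. apoa2 (24063946 to 24065322) had a level of 23441, and apoc4, whose start lies at -3.05 kb from that of apoa2, had 30.6. apoc1, with its start at -6.85 kb, had 1413, so apoa2 stood 16.6 times above it on the scale of the level. Chosen for their position, the other apolipoprotein genes of the cluster had log2 folds of 0.87 for apoa4b.2, 0.28 for apoa4b.3 and 0.83 for apoc4, by the authors' deposited table. The threshold was passed by none of the 8 genes. The 4 genes of the apoeb to apoc2 stretch that are among the 9 were lower in the mutant, while the 3 apoa4b copies and apoc4 were higher, with intervals that overlap throughout.

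The annotated span of apoa4b.2 (23999187 to 24033538, level 84.1) covers most of apoa4b.1 (23999038 to 24001231) on the same strand and takes in apoa4b.3. How reads were divided among these 3 copies is uncertain, since the counting rule is not given in the sources used here. apoa1a overlaps 1 gene and apoea 2 genes of the opposite strand, and it is not known whether strand was used in counting. The genes flanking the cluster, gtpbp10 and bcam, had levels of 5.45 and 5.95, and the authors' deposited table lists log2 folds of -0.26 and 0.61 for them. On chromosome 19, apoa4a ends 4323 bases before apoea and had a level of 14.1 with a log2 fold of 1.12 (p = 0.301) in the authors' deposited table.

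**Figure D3:**
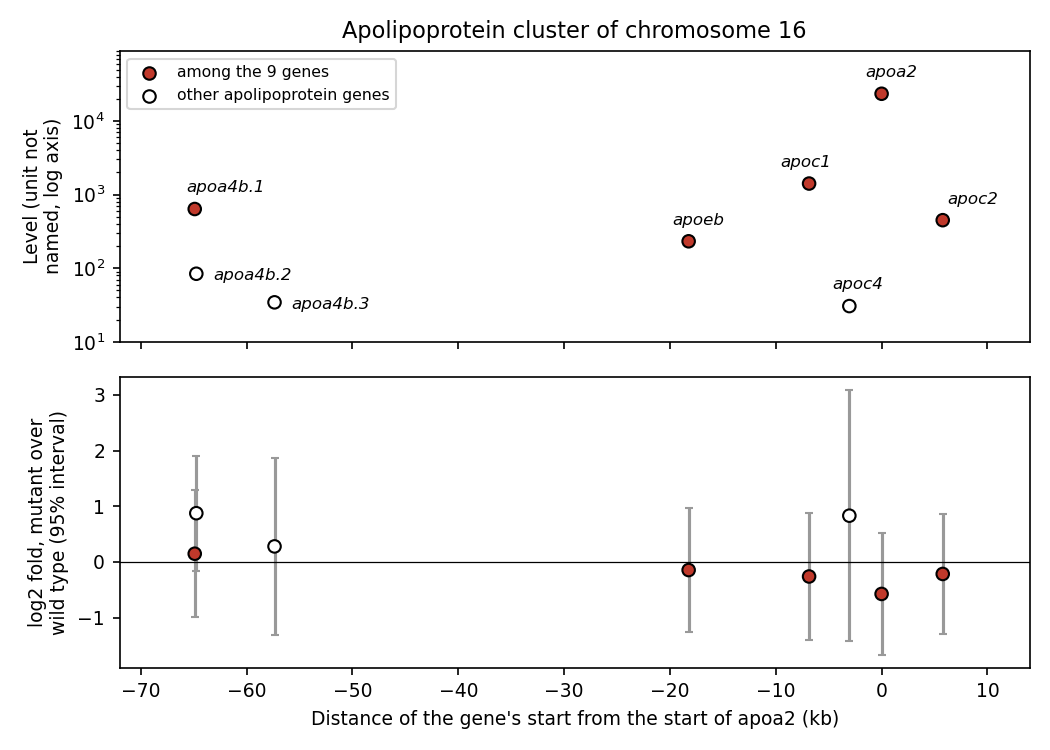
The upper panel gives the level (log axis, unit not named) and the lower panel the log2 fold of rraga mutant over wild type with its implied 95% interval, both against the distance in kb of each gene's start from that of apoa2; red points are among the 9 genes and open points are the other apolipoprotein genes with a p. The level is 23441 at apoa2 and 30.6 at apoc4, its neighbour at -3.05 kb, and every interval in the lower panel crosses 0.

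Other apolipoprotein genes were mixed in direction. Of 13 found, 8 had a higher and 5 a lower value in mutant than in wild type. Their median log2 fold was 0.75, and none passed the threshold. The most abundant of them was apoda.2, a gene for apolipoprotein D, a lipocalin that binds small lipids, with a level of 2654. The authors' deposited table gives it a log2 fold of -1.56 with p = 0.00385, which at 0.403 after FDR adjustment does not pass. The annotated span of apoda.2 takes in apoda.1 (level 13.4, log2 fold 1.46), and how reads were divided between these copies is uncertain. apom, for the lipocalin of high density lipoprotein that carries sphingosine 1-phosphate, had a level of 1365. Its log2 fold in the authors' deposited table, -0.55 (p = 0.324), was close to those of apoa2 and apoa1b. Genes for apolipoprotein B, the scaffold of the large triglyceride-rich particles, were far lower, with levels of 27.1 for apobb.1, 16.2 for apoba and 1.76 for apobb.2. Vitellogenins, the large lipid carriers of egg yolk made by the liver of laying females, had levels at or close to 0. Of these, 6 of 7 were listed at 0, and vtg7 had a level of 0.869. The annotated span of vtg7 overlaps those of vtg1, vtg4, vtg5 and vtg6, and how reads were divided among these copies is uncertain.

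The family of fabp10a was mixed in direction too. Of 10 other fatty acid binding protein genes with a p, 6 had a higher and 4 a lower value in mutant cells. The median was 0.67, or 1.16 over the 7 of level 10 or more, and none passed the threshold. The 3 most abundant were fabp3 (level 1637), fabp7a (684), which marks radial glia, and fabp2 (581), the intestinal form. The authors' deposited table lists -0.20, -0.55 and 0.17 as their log2 folds. Another pair of gut forms, fabp1b.1 (level 213) and fabp6 (level 25.0), is named for an unadjusted p under 0.05, after the values were seen. The authors' deposited table gives fabp1b.1 a log2 fold of 1.48 (p = 0.0110, FDR adjusted 0.551) and fabp6 a log2 fold of 5.39 (p = 0.00381, FDR adjusted 0.403). The list of 12 retinoid and other small lipid carriers had 9 lower and 3 higher members and a median of -0.48, and none passed. For the cellular retinol carrier gene rbp2b (level 2453), the transthyretin gene ttr (618) and the vitamin D binding protein gene gc (307), the authors' deposited table lists log2 folds of -0.38, -0.57 and -0.74.

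Of the genes found that build, remodel and take up lipoproteins, none passed the threshold. All were less abundant than the 7 lipid carrier genes with a level of 100 or more. apoa1a and apoea, however, were lower than the highest of them. Of 22 assembly and secretion genes, 14 were lower and 8 higher in the mutant, with a median log2 fold of -0.32, or -0.13 over the 7 of level 10 or more. The highest levels belonged to sar1b (106), for a GTPase of the vesicles that leave the endoplasmic reticulum, pla2g12b (41.3) and surf4l (32.1). The authors' deposited table gives them log2 folds of -0.13, -0.44 and 0.11. The 4 with an unadjusted p under 0.05, named for that, were sar1ab and the genes of the neutral lipid synthesis enzymes dgat1b, dgat2 and soat2. At levels of 3.18, 5.69, 5.24 and 19.8, the authors' deposited table gives them log2 folds of -4.39, -3.45, -2.91 and -2.79, with FDR adjusted p-values of 0.524, 0.471, 0.609 and 0.223.

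Of 12 plasma lipase and remodelling genes, 7 were lower and 5 higher, with a median of -0.23. The most abundant were angptl4 (level 90.0), for an inhibitor of lipoprotein lipase, and cetp (66.9), for cholesteryl ester transfer protein. By the authors' deposited table their log2 folds were 0.17 and -0.13. The endothelial lipase gene lipg (level 8.49) and the phospholipid transfer protein gene pltp (level 2.78) are named for an unadjusted p under 0.05. Their log2 folds were 1.77 and 3.41 there, with FDR adjusted p-values of 0.685 and 0.637. Of 19 lipoprotein receptor genes, 11 had a higher and 8 a lower value, and the median was 0.38, or 1.18 over the 3 of level 10 or more. For the scavenger receptor gene cd36 (level 32.4), the chaperone gene lrpap1 (31.6) and the adaptor gene ldlrap1a (12.6), the authors' deposited table lists 1.18, 0.80 and 1.59. amn (level 5.62), for the partner of cubilin, was the 1 receptor gene with an unadjusted p under 0.05. Its log2 fold was 4.0 there, with an FDR adjusted p of 0.524.

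Transcription factor genes of the liver and of lipid metabolism had low levels, and 15 of 26 were lower and 11 higher in the mutant, with a median of -0.11. cebpb (level 157), cebpa (19.9) and nr1h3 (13.7), the liver X receptor gene, had small folds, which the authors' deposited table lists as log2 values of -0.08, -0.12 and -0.09. The 2 with an unadjusted p under 0.05 were hnf1ba (level 2.12) and nr5a2 (level 5.04). The authors' deposited table gives them log2 folds of -4.46 and -1.70 and FDR adjusted p-values of 0.404 and 0.642.

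Markers of liver, gut and exocrine pancreas were present, and they differed in direction. Of 28 other hepatocyte markers, which hold none of the 9 genes, 24 were lower and 4 higher in the mutant. The median log2 fold was -0.79, and together they held 1.84% of the summed level. itih3a, for a chain of the inter-alpha-trypsin inhibitor, was the 1 that passed, and it fell: the authors' deposited table gives its log2 fold as -4.13 (FDR adjusted p = 0.0392), with 15.1 as its level. The most abundant, the transferrin gene tfa (level 3277), the fetuin gene fetub (1734) and the urate oxidase gene uox (1337), had -0.99, -0.41 and 0.14 there. The 19 exocrine pancreas markers held 6.44% of the summed level, with 18 lower, 1 higher and a median of -0.94, and none passed. Of 17 enterocyte markers, 15 were higher and 2 lower, and none passed; the median was 0.90. In that list the authors' deposited table gives 0.17 for fabp2, 1.30 for tm4sf4 (level 115) and 1.05 for the chitinase gene chia.2 (level 99.5). No marker of these 3 lists was listed at 0, and their summed level per genotype is not given. The part of liver, pancreas and gut cells in the values of the 9 genes was not tested.

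Among markers of cells of the nervous system that can make apolipoprotein E, those of macrophages and microglia had levels of 59.3 or less. The radial glia markers fabp7a (level 684), s100b and glula had higher levels than apoeb (232). All other radial glia markers had lower levels than apoeb, the lowest being gfap at 2.64. The 23 macrophage and microglia markers summed to 0.0380% of the total level, and 1 of them was listed at 0. Of the 22 with a p, 14 had a higher and 8 a lower value in mutant cells, none of them past the threshold, and the median was 0.71. The most abundant were ctss2.1 (level 59.3), grn1 (31.9) and si:ch211-212k18.7 (29.8), the last matched to cd68 by its identifier, for which the authors' deposited table lists 1.33, 1.01 and 0.98. Of 13 radial glia markers, 7 were lower and 6 higher and none passed; the median was -0.55. The authors' deposited table gives -0.55 for fabp7a, 1.1 for s100b (level 250.1) and -0.68 for glula (level 240.3). apoeb, at -0.15, lay between the medians of both lists. Of the 18 oligodendrocyte markers, 10 were lower and 8 higher, with a median of -0.18, or -0.69 over the 15 of level 10 or more. By the authors' deposited table, mpz fell (log2 fold -2.96, FDR adjusted p = 2.34e-04) and hapln2 rose (log2 fold 3.17, FDR adjusted p = 0.0227). The most abundant markers of that list, mbpa, cd59 (level 3359) and plp1b (3005), had 0.23, -1.57 and -1.89 there, none past the threshold.

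**Figure D4:**
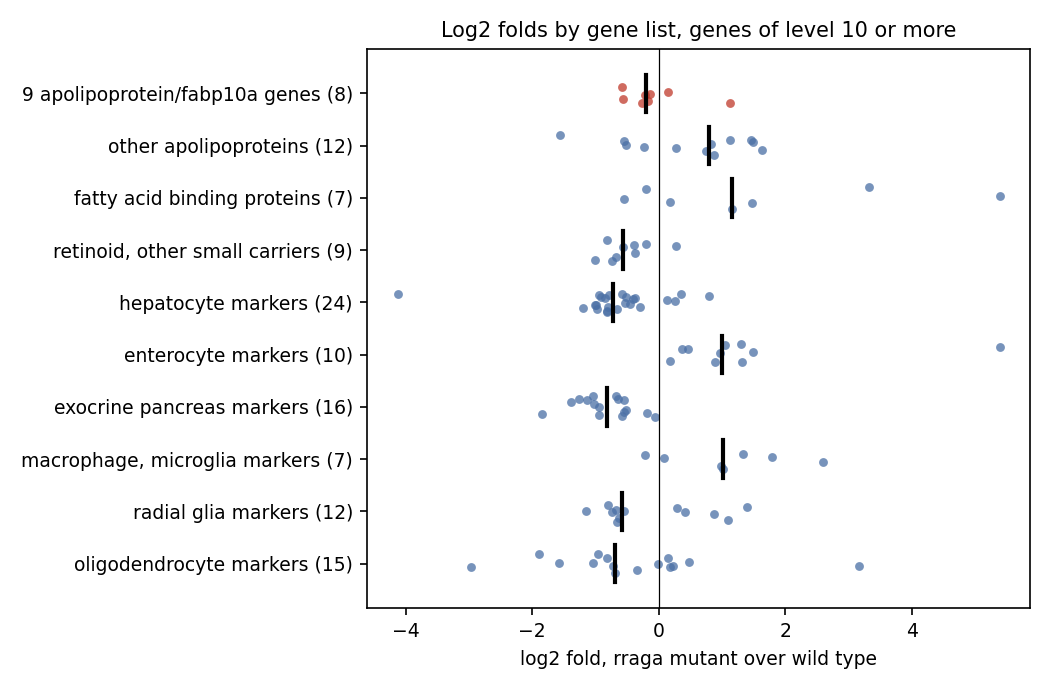
Each point is a gene of level 10 or more, with the log2 fold of rraga mutant over wild type on the x axis and 1 row per gene list (number of genes shown in brackets); black bars are medians, and the vertical scatter within a row has no meaning. The 8 lipid carrier genes shown (red) have a median of -0.19, beside -0.72 for hepatocyte markers, -0.81 for exocrine pancreas markers and 1.01 for enterocyte markers.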

How the data were processed

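The data are 1 table of the authors' own comparison of rraga mutant with wild type. The genome build was GRCz11, per the submitters' processing notes. Which aligner, counter, normalization and test the authors used is not given in the sources used here. Per the file headers, the authors deposited a normalized expression signal (the maximum group mean, here the level), a log2 fold, a signed fold, and p-values that were unadjusted, FDR adjusted and Bonferroni adjusted. The 8569 genes of level 0 hold an error in place of fold and p. The deposited FDR p-value was within 1.28e-04 of a Benjamini-Hochberg adjustment over all 34326 genes.

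Computed here (Python 3.11.15, pandas 2.3.3, NumPy 2.4.6, SciPy 1.17.1) were ranks and shares of the level, counts, medians, and an implied standard error (the size of the log2 fold divided by the normal score of its two-sided p), whose arithmetic was checked on simulated data. It is not known whether that error carries replicate spread, nor whether the merged replicates were separate units of the authors' test. The table gives no counts, so the depth is unknown. Of 258 list entries, 249 were found, 6 of them by Ensembl identifier, and 3 were further names of a gene already listed. The entries are 246 distinct genes, since 3 genes stand in 2 lists. The genes and lists were chosen with earlier results of these data known. Genes named in the text are the 9, the 5 most abundant others, and per list the 3 of highest level and any past the threshold. Other genes are named where the text gives the reason. For 1 list, 1 gene that this rule names is not reported here. Promoter and protein sequences were not used here.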

Additional observations from a re-analysis of the deposited data

How the results depend on the processing

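None of the 9 genes was called under any of the 4 other settings tried. An FDR p under 0.01 and an added absolute log2 fold of at least 1 only narrow the main call. With none of the 9 called there, they could add none. Benjamini-Hochberg adjustment over genes of level 1 or more, or of level 10 or more, could have added a gene and did not. Over the 4 settings the lowest adjusted p of the 9 genes lay between 0.803 and 0.893. apoea, below level 10, had no value in 1 of these. The number of changed genes was 57 by the authors' FDR p, 20 at an FDR p under 0.01, and, with fewer genes in the adjustment, 90 from level 1 upwards and 113 from level 10 upwards. The median log2 fold of the 9 genes was -0.17, -0.20 after subtracting the median of all genes, -0.28 after subtracting that of genes of level 100 or more and -0.05 as a mean, and it ran from -0.19 to -0.16 with 1 gene left out. No gene of the 9 changed direction under that centring. Their share of the summed level was 10.3%, or 10.6% without genes whose names begin with mt-. AC024175.4 of the mitochondrial genome lacks that prefix and stayed in the sum. With list genes under level 10 left out, which was chosen after seeing the data, the oligodendrocyte median was -0.69 in place of -0.18, that of the receptors 1.18 in place of 0.38, that of the fatty acid binding proteins 1.16 in place of 0.67, and that of assembly genes -0.13 in place of -0.32. No paired analysis was possible because the table holds no value per replicate, and leaving out a replicate or refitting with another normalization could not be run for the same reason. The unknown depth and the wide implied intervals limit every statement on direction.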
